A study of Mus musculus with 6 samples.

Results

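Imprinted genes are read from the copy of 1 parent, and the choice is set by methylation of a control region laid down in the egg or the sperm. Most control regions are methylated on the maternal copy, and the few methylated on the paternal copy lie at H19 and Igf2, between Dlk1 and Meg3, and upstream of Rasgrf1. These loci were examined here in DNA from mouse bone marrow cells during culture with Flt3L, the growth factor used to raise dendritic cells. They were chosen by position on the mm9 genome build, as 4 windows. The H19 window (chr7:149760000-149772000) was set to hold H19 and its control region, the Igf2 window was chr7:149834000-149855000, the window from Dlk1 to Meg3 was chr12:110685000-110800000, and the window upstream of Rasgrf1 was chr9:89763000-89782000. Of the 652716 cytosines measured, 154 lie in these windows, with 12 at H19, 61 at Igf2, 77 from Dlk1 to Meg3 and 4 at Rasgrf1. No gene, exon or promoter positions on mm9 were used here, so each stretch is given by its position in a window and not by a gene part.

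Methylation was read by reduced representation bisulfite sequencing, which covers cytosines near the cut sites of chosen enzymes, here MspI and TaqI. The groups, with 2 samples each, were uncultured marrow at day 0 (replicates 2 and 3), cells after 4 days of culture, which the labels call common myeloid progenitors (replicates 1 and 2), and cells after 7 days, which they call bone marrow derived dendritic cells (replicates 1 and 4). All came from C57BL/6J mice labelled male, the cells of days 4 and 7 were all the live cells of the culture, with no sort named, and the Flt3L came as supernatant of a transfected SP2/0 line. Whether samples within a group are from separate animals is not stated in the labels, so the p-values rest on a spread between samples that may be technical alone. In such mixed cells, a new mix of cell types and a change within cells cannot be told apart. Cell type markers were not checked, since the table carries no gene names. The comparisons ask how methylation at these loci differed between the days of the culture.

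Reads summed over cytosines came to 6736556 to 10242334 in 5 samples and to 3641141 in day 7 replicate 4, whose median depth was 4 reads per cytosine against 9 to 14 in the others. Mean reads per X cytosine divided by mean reads per autosomal cytosine were 1.01 and 1.07 in the day 7 samples and 0.650 to 0.688 in the other 4, although all 6 carry the label male. The day 7 libraries thus stand apart from the others under the same label. They do not enter the levels of day 4 and day 0, but all 6 samples share the dispersion and the depth filter of the tests. The windows lie on autosomes, and the part that a difference between the day 7 libraries and the others plays in the values below was not tested.

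H19 is a long noncoding RNA made from the maternal copy, and Igf2, a growth factor of the fetus, is made from the paternal copy. On the maternal copy the unmethylated control region binds CTCF, which keeps distant enhancers from Igf2, and on the paternal copy methylation prevents this binding. Dlk1, a membrane protein related to Notch ligands, is made from the paternal copy and Meg3, a long noncoding RNA, from the maternal copy. Rasgrf1, an exchange factor that activates Ras, is made from the paternal copy in mouse brain. A stretch methylated on 1 parental copy alone gives an intermediate level in DNA from many cells. A stretch fully methylated or unmethylated on both copies in all cells gives a level near the top or bottom of the scale. Partial methylation of both copies, or a mix of unlike cells, also gives an intermediate level, and reads were not assigned to parental copies here.

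RefSeq promoter sequences (build GRCm38.p6, from 250 bases before to 50 bases after a gene's start) were matched by symbol for 4 of the 5 genes. They are shown to mark any cut sites of the assay near a gene's start, and cut sites outside these bases were not examined. Capitals mark CCGG, which MspI cuts, and TCGA, which TaqI cuts. Both motifs read the same on either strand, and they cannot overlap each other. The coordinates of this build were not converted to mm9, so it was not determined which measured cytosines lie in these bases. Meg3 lies at chr12:109540746-109541045 (plus strand, the start with the most CpG of the 2 listed). Igf2 lies at chr7:142658755-142659054 (minus strand, the start with the most CpG of the 4 listed). Dlk1 lies at chr12:109452573-109452872 (plus strand) and Rasgrf1 at chr9:89909525-89909824 (plus strand).
Meg3: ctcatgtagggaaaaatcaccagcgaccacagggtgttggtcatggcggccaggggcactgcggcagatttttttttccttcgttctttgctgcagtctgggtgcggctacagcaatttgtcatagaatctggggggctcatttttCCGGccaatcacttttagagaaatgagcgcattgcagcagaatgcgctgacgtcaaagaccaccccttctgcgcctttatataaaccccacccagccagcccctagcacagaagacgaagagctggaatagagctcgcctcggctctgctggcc
Igf2: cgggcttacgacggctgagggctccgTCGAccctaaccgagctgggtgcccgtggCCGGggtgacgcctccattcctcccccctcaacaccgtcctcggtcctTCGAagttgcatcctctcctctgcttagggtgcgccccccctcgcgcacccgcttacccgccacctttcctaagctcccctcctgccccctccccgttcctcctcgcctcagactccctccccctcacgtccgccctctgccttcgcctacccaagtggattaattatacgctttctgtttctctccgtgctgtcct
Dlk1: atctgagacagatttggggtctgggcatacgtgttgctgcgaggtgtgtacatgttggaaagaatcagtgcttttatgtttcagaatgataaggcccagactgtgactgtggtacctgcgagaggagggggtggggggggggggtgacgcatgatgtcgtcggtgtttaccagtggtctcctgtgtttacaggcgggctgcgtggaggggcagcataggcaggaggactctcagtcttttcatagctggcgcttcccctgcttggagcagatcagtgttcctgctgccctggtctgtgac
Rasgrf1: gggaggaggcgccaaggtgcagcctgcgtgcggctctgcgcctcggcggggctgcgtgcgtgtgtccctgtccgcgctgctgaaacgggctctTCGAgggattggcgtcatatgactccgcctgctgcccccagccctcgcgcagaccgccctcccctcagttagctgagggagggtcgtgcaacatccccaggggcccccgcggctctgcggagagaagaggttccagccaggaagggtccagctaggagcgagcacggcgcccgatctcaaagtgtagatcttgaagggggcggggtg

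The Igf2 stretch holds 24 CpG with 1 CCGG and 2 TCGA, and the Meg3 stretch holds 13 CpG with 1 CCGG. The Rasgrf1 stretch holds 26 CpG but a single TCGA, and the Dlk1 stretch holds 9 CpG with neither motif. Of the 32851 promoters of 300 bases in the RefSeq table, 52.8% hold CCGG and 22% hold TCGA, and the median promoter holds 7 CpG. In the gene order of that build, Mir675 and Gm33148 are listed between H19 and Igf2, and Gm34081 and Gm34017 between Dlk1 and Meg3. The order does not show overlap, so a listed gene may lie inside its neighbour.

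Measured cytosines were joined into runs wherever neighbours lay at most 100 bp apart, and runs are numbered by position within a window. There were 56 runs in the 4 windows, of which 34 held 1 or 2 cytosines and 22 held at least 3. Runs of at least 3 cytosines are called regions. Of the 22 regions in the windows, 16 had at least 10 reads in each sample and entered the tests, 1 at H19, 7 at Igf2, 8 from Dlk1 to Meg3 and 0 at Rasgrf1. The level of a run is the percent methylated among the reads counted at its cytosines. A sequencing read that covers several cytosines is counted at each of them, so the reads of a run are not independent molecules. Binomial intervals at 95% (exact, Clopper-Pearson) cover counting error only and are too narrow for runs of several cytosines.

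The 4 windows held low, intermediate and high stretches side by side. Of the 16 regions, 3 lay between 30% and 70% in each of the 6 samples, 8 lay below 10% in each and 2 lay above 70% in each. Among 55873 autosomal regions with the same depth, 2.37% were intermediate in each sample, 35.5% were below 10% in each and 30.6% were above 70% in each. The 3 intermediate regions were run 16 of the Igf2 window and runs 5 and 27 of the Dlk1 to Meg3 window. Without day 7 replicate 4 the H19 region joined them, as the fourth of 16, against 3.25% of the autosomal regions. Since the windows were chosen for imprinting, these shares are a description.

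**Figure D1:**
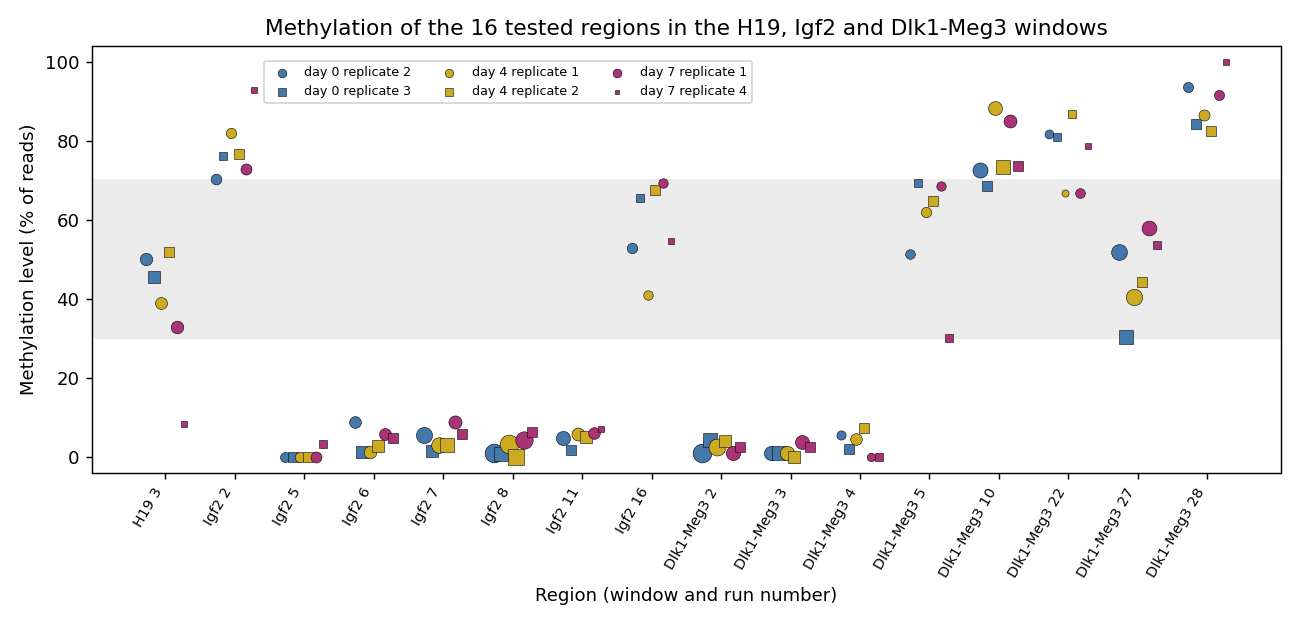
Methylation level (percent of reads, vertical axis) of the 16 tested regions (horizontal axis, window and run number) in each of the 6 samples. Colours stand for the day, circles and squares for the 2 samples of a day, marker size grows with reads up to 200, and the grey band marks 30% to 70%. A reader sees 8 regions near the bottom of the scale in the Igf2 and Dlk1-Meg3 windows, the H19 region and Dlk1-Meg3 run 27 near the middle, and day 7 replicate 4 (small pink squares) far from the other samples at the H19 region, at 8.33%, and at Dlk1-Meg3 run 5, at 30%.

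At H19, the 9 cytosines of runs 3 to 5 (chr7:149766835-149767291) had intermediate levels, and the 3 cytosines nearer the start of the window had higher ones. Run 3, the region tested (chr7:149766835-149766976, 6 cytosines), stood at 50% and 45.5% (day 0), 38.9% and 51.9% (day 4) and 32.9% and 8.33% (day 7). The day 4 samples lay on both sides of the day 0 samples, and both day 7 samples lay below the other 4. Day 7 replicate 4 rests on 12 reads in run 3, which is 2 reads at each cytosine, against 52 to 82 reads in the other samples. Over the pooled reads of all samples, the 6 cytosines lay between 40.0% and 44.3%.

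The group means of run 3 were 47.7% ± 3.21 (day 0), 45.4% ± 9.22 (day 4) and 20.6% ± 17.4 (day 7) (SD, n = 2 each). The differences were -27.1 points for day 7 against day 0 (adjusted p = 0.394), -24.8 points for day 7 against day 4 (adjusted p = 0.525) and -2.32 points for day 4 against day 0 (adjusted p = 1), by a likelihood ratio in edgeR, with p-values adjusted (Benjamini-Hochberg) over 56105 regions. Without day 7 replicate 4, the difference of day 7 from day 0 was -14.8 points (adjusted p = 0.616, edgeR). Run 4 (2 cytosines) stood at 51.7% and 55.2% (day 0), 46.4% and 66.7% (day 4) and 50% and 55.6% (day 7), so its day 7 samples lay within the range of the other samples. Run 5, a single cytosine at 149767291, stood at 66.7% in both day 0 samples, 62.5% and 33.3% at day 4, and 66.7% and 50% at day 7, on 2 to 12 reads.

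Joined by gaps of up to 200 bp, a rule added after the data were seen, the 9 cytosines stood at 52.1% and 50% (day 0), 42.6% and 54.4% (day 4) and 40.5% and 30.4% (day 7). The exact binomial intervals were 42.8% to 61.3% and 40.03% to 59.97% (day 0), 33.1% to 52.5% and 42.8% to 65.7% (day 4) and 31.8% to 49.6% and 13.2% to 52.9% (day 7). Both day 7 samples lay below the others, with a difference from day 0 of -15.6 points (adjusted p = 0.596, edgeR). This is not a second observation, since the 9 cytosines include those of run 3. Neither run 4 nor run 5 had both day 7 samples below the others. Runs 1 and 2, at 149761722 and at 149762173 to 149762178, stood at 68.8% and 83.3% over the pooled reads of the 6 samples. Run 1, a single cytosine, stood at 57.9% and 50% (day 0), 78.6% and 75.0% (day 4) and 85.0% and 66.7% (day 7), so the later samples all lay above day 0, on 3 to 20 reads. Run 2 stood at 85.7% and 78.6% (day 0), 88.5% and 50% (day 4) and 81.2% and 100% (day 7), on 4 to 26 reads. Neither was tested.

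**Figure D2:**
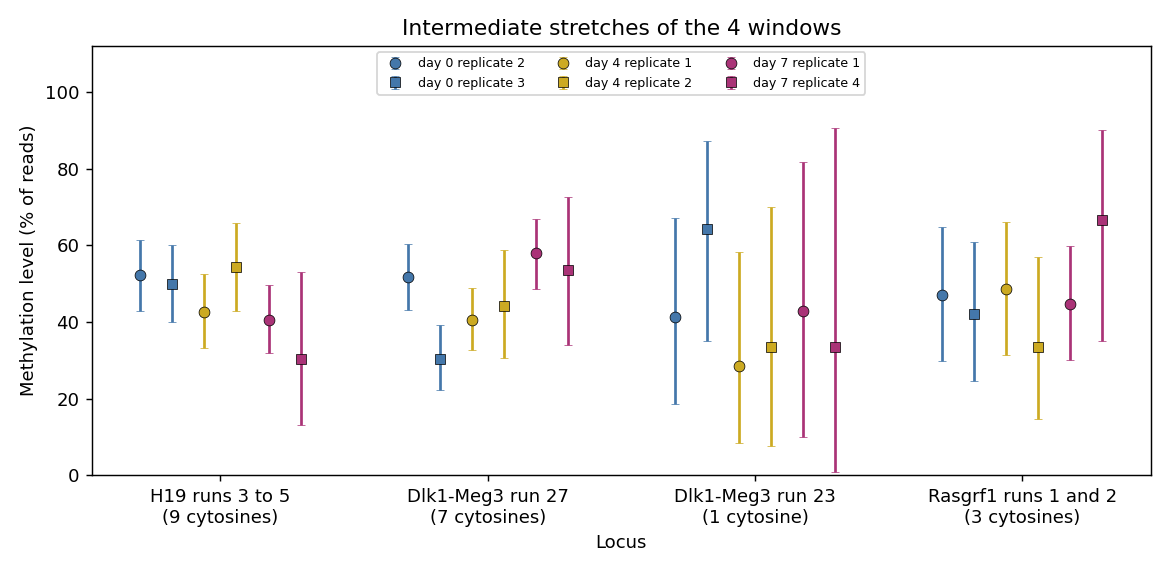
Methylation level (percent of reads, vertical axis) of 4 intermediate stretches chosen for display (horizontal axis) in each of the 6 samples, with exact 95% binomial intervals that cover counting error only and are too narrow where a stretch holds several cytosines. Runs 15 and 16 of Igf2 and run 5 of Dlk1-Meg3, also intermediate in each sample, are not shown. The single cytosine shown fell below 30% in day 4 replicate 1. The samples of the 3 days overlap at Rasgrf1, the day 4 samples lie below the day 0 samples at the single cytosine (28.6% and 33.3% against 41.2% and 64.3%), and the day 7 samples lie lowest at H19 (40.5% and 30.4%) and highest at Dlk1-Meg3 run 27 (58.0% and 53.6%).

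From Dlk1 to Meg3 the window held a methylated first cytosine (91.7% over the pooled reads), then 3 nearly unmethylated runs, and after them mostly methylated runs with a few intermediate ones. Run 27 (chr12:110779103-110779280, 7 cytosines), the most deeply read intermediate region of the windows, stood at 51.8% and 30.3% (day 0), 40.5% and 44.2% (day 4) and 58.0% and 53.6% (day 7). The 2 day 0 samples enclosed both day 4 samples, and both day 7 samples lay above the other 4. The means were 41.1% ± 15.2, 42.4% ± 2.61 and 55.8% ± 3.12 on the 3 days (SD, n = 2 each), and none of the differences, 14.7 points for day 7 against day 0, 13.4 points for day 7 against day 4 and 1.31 points for day 4 against day 0, passed the test (adjusted p = 0.548, 0.648 and 1, edgeR). The day 0 samples lay 21.5 points apart, more than any of these differences. Without day 0 replicate 2 the difference of day 7 from day 0 was 25.5 points, and without day 0 replicate 3 it was 3.95 points (adjusted p = 0.487 and 0.943, edgeR). The 7 cytosines lay between 38.6% and 49.2% over the pooled reads.

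Run 23 of the same window is a single cytosine at 110767055. It had 7 of 17 and 9 of 14 reads methylated (day 0), 4 of 14 and 3 of 9 (day 4) and 3 of 7 and 1 of 3 (day 7). Over all samples 42.2% of 64 reads were methylated. At day 4 both samples, on 14 and 9 reads, were lower than those of day 0, and the day 7 samples overlapped both other days. This cytosine was not tested. Its flanking runs, at 110750154 and at 110771733, were methylated at 66.7% to 86.7% and at 71.4% to 100% in the single samples. Run 5 (chr12:110698174-110698228, 4 cytosines) stood at 51.2% and 69.2% (day 0), 62.0% and 64.8% (day 4) and 68.4% and 30% (day 7). Day 7 replicate 4, with 20 reads there, was the lowest sample, and day 7 replicate 1 lay within the range of the others.

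**Figure D3:**
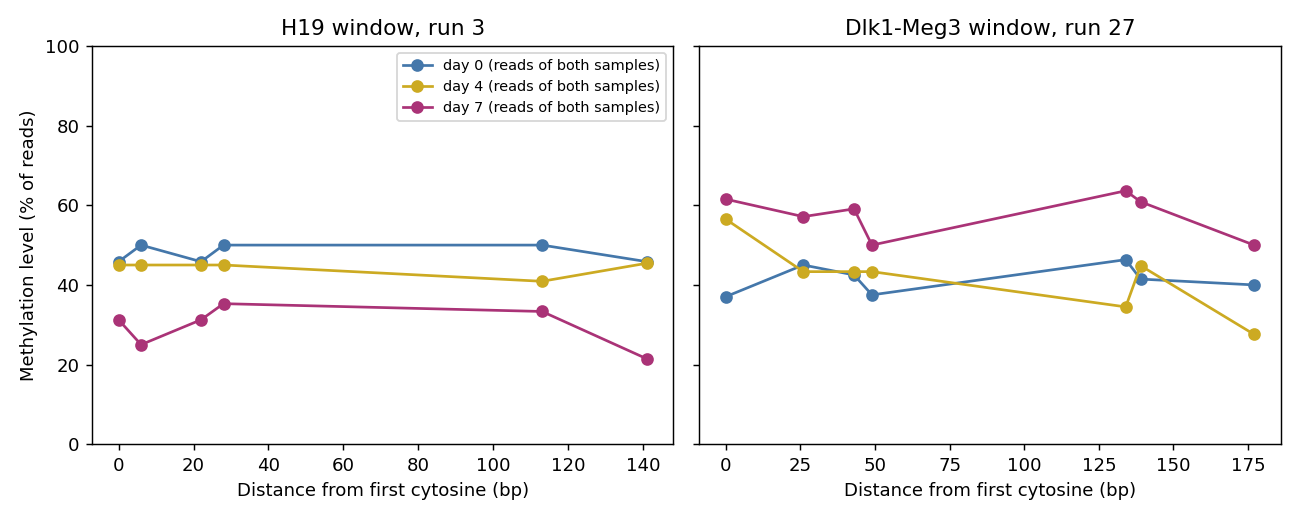
Methylation level (percent of the reads of both samples of a day, vertical axis) of each cytosine in run 3 of the H19 window and run 27 of the Dlk1-Meg3 window against distance from the first cytosine of the run (bp). Pooled over the days, the 6 cytosines of the H19 run lie between 40.0% and 44.3% and the 7 of the other run between 38.6% and 49.2%; reads of day 7 replicate 4 add 2 per cytosine at H19.

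The Rasgrf1 window held 4 measured cytosines, too few and too far apart for a region. The 3 at chr9:89772999-89773152 were intermediate, at 47.1% and 41.9% (day 0), 48.6% and 33.3% (day 4) and 44.7% and 66.7% (day 7), on 12 to 47 reads. The days overlapped, and the difference of 11.2 points for day 7 against day 0 did not pass when gaps of 200 bp made them a region (adjusted p = 0.874, edgeR). The fourth cytosine, at 89780753, was nearly unmethylated, with 0 of 17 and 1 of 18 methylated reads (day 0), 2 of 16 and 0 of 13 (day 4) and 0 of 9 and 1 of 7 (day 7). The counts of 0 allow levels of up to 17.6%, 23.1% and 33.3%.

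The Igf2 window was mostly unmethylated. Of its 61 cytosines, 46 lay in 8 runs with pooled levels of 0.357% to 4.84%, and 5 of these 8 runs were tested regions. Runs 9 and 10, among the 8, had no reads in day 7 replicate 4, so their pooled levels cover the other samples alone. Run 5 (chr7:149845099-149845132) had no methylated read in 5 samples, on 45 to 58 reads, and 1 of 31 in day 7 replicate 4. If independent, those 45 to 58 reads would allow levels of up to 5.17% to 6.67%. The true limits are higher, since the cytosines of a run share sequencing reads. The cytosine at 149845110, for example, had 13 to 16 reads in those 5 samples. Run 8 (chr7:149846732-149846940, 13 cytosines), the longest run of the 4 windows, stood at 0.855% and 0.820% (day 0), 3.18% and 0% (day 4) and 4.17% and 6.25% (day 7). The 125 reads of the sample at 0% would allow a level of up to 2.40% if independent, and more since the 13 cytosines share reads. Both day 7 samples lay above the other 4.

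Run 8 was the 1 region with an unadjusted p below 0.05 for day 7 against day 0, with a difference of 4.37 points for day 7 against day 0, and it did not pass after adjustment (adjusted p = 0.253, edgeR). Run 6 (chr7:149845243-149845261) stood at 8.70% and 1.32% (day 0), 1.22% and 2.67% (day 4) and 5.63% and 4.65% (day 7). Run 7 (chr7:149845700-149845815) stood at 5.59% and 1.52% (day 0), 3.01% and 2.86% (day 4) and 8.89% and 5.71% (day 7). Run 11 (chr7:149850272-149850292) stood at 4.67% and 1.75% (day 0), 5.75% and 4.92% (day 4) and 5.97% and 7.14% (day 7). Day 7 samples lay above both day 0 samples in runs 7 and 11 and between them in run 6. Pooled over the 5 low Igf2 regions, 33 cytosines, the level was 2.30% ± 1.72 (day 0), 2.45% ± 0.728 (day 4) and 5.17% ± 0.139 (day 7) (SD, n = 2 each). The 22273 autosomal regions outside the windows with means below 10% stood at 1.26% ± 0.131, 1.31% ± 0.111 and 2.36% ± 0.192 on the same days, and the 31 mitochondrial cytosines at 0.519% ± 0.0406, 0.919% ± 0.361 and 2.02% ± 0.362. The part of this wider shift in the Igf2 values was not tested.

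The 3 low regions of the Dlk1 to Meg3 window (chr12:110688113-110688614, 17 cytosines) stood at 1.93% ± 0.748 (day 0), 2.80% ± 0.607 (day 4) and 2.01% ± 0.12 (day 7), with the day 7 samples inside the day 0 range. Run 2 (chr12:110688113-110688302) stood at 0.935% and 4.26% (day 0), 2.5% and 4.00% (day 4) and 0.926% and 2.44% (day 7). Run 3 (chr12:110688411-110688455) stood at 0.935% and 1.01% (day 0), 0.901% and 0% (day 4) and 3.85% and 2.44% (day 7). Run 4 (chr12:110688588-110688614) stood at 5.56% and 1.96% at day 0, 4.48% and 7.32% at day 4, and 0% at day 7. At day 7, 27 and 22 reads per sample would allow levels of up to 11.1% and 13.6% if independent. The true limits are higher, since the cytosines of the run share reads. Run 4 was the 1 region with an unadjusted p below 0.05 for day 7 against day 4 (adjusted p = 0.408, edgeR). All its methylated reads at day 4 lay at a single cytosine, 110688614, with 3 of 27 and 3 of 15. At day 7 that cytosine had 7 and 6 reads, none of them methylated.

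**Figure D4:**
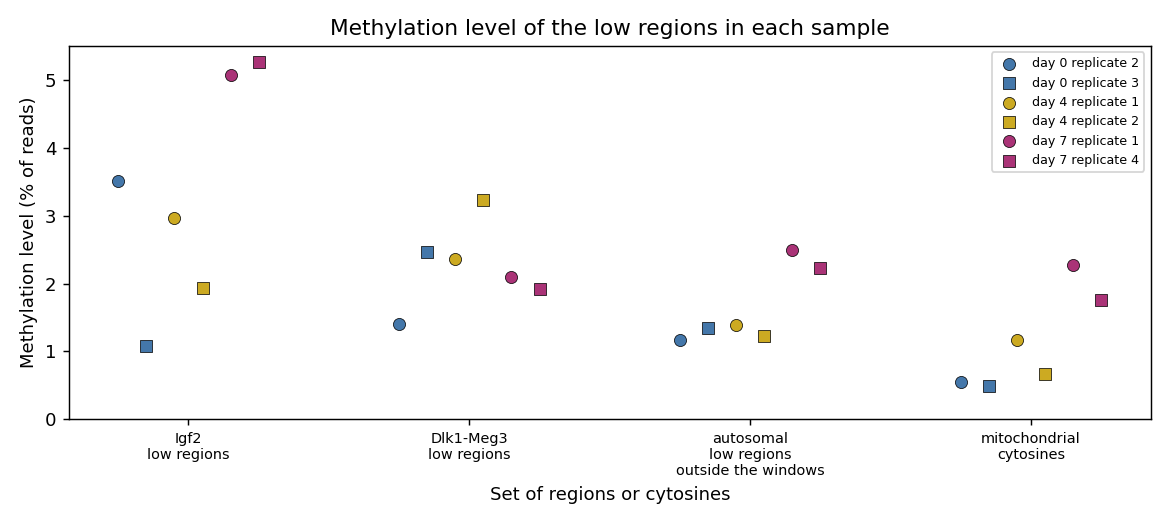
Methylation level (percent of reads, vertical axis) of the low regions of the Igf2 and Dlk1-Meg3 windows, of all low autosomal regions outside the windows and of mitochondrial cytosines (horizontal axis), with a point for each of the 6 samples. The day 7 samples are highest at Igf2 (5.07% and 5.26%), over autosomal low regions (2.49% and 2.22%) and in mitochondrial DNA (2.27% and 1.76%), and lie within the range of the others at the Dlk1-Meg3 window (2.09% and 1.92%).

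Both ends of the measured Igf2 stretch were more methylated, with runs 1 to 4 between 66.7% and 77.4% over the pooled reads. Run 2 (chr7:149842840-149842943) stood at 70.4% and 76.2% (day 0), 82.0% and 76.7% (day 4) and 72.9% and 92.9% (day 7). At day 4 both samples exceeded those of day 0, while the day 7 samples overlapped both other days. The last cytosine of run 2, 149842943, had 2 of 9 and 0 of 3 reads methylated at day 0. At day 4 that cytosine had 5 of 8 and 6 of 10. Over the pooled reads it was intermediate, at 45.5%, while the others of the run stood at 80.3% to 86.2%. Run 16, at the other end (chr7:149851443-149851494), was intermediate, at 52.9% and 65.6% (day 0), 41.03% and 67.6% (day 4) and 69.2% and 54.5% (day 7). Its 3 cytosines, in order of position, had 70.9%, 65.2% and 35.9% of pooled reads methylated. Shortly before it, run 14 (chr7:149851042-149851087, 2 cytosines) stood at 31.8% and 45.8% (day 0), 3.85% and 25.0% (day 4) and 21.6% and 61.5% (day 7), a wide spread within each day on 13 to 44 reads. Run 15, a single cytosine at 149851248, was intermediate in each sample, on 6 to 20 reads, and was not tested. It stood at 60% and 50% (day 0), 58.8% and 50% (day 4) and 61.5% and 50% (day 7). Over the pooled reads, runs 12 to 16 stood at 4.11%, 17.9%, 28.6%, 56.2% and 58.4%, so the level climbed along this end of the window.

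Most of the remaining runs of the Dlk1 to Meg3 window were methylated. Of its 32 runs, 24 had pooled levels of 72.6% to 91.7%, and together they stood at 82.1% and 79.6% (day 0), 85.7% and 82.3% (day 4) and 86.5% and 77.1% (day 7). Here the day 4 samples were both higher than the day 0 samples, and the day 7 samples lay on either side of all. Run 10 (chr12:110710917-110711054, 6 cytosines) stood at 72.6% and 68.6% (day 0), 88.2% and 73.3% (day 4) and 85.1% and 73.7% (day 7). The difference of 10.2 points for day 4 against day 0 did not pass (adjusted p = 0.841, edgeR), although the samples of the 2 days did not overlap. Run 22 (chr12:110750154-110750197) stood at 81.8% and 81.0% (day 0), 66.7% and 86.7% (day 4) and 66.7% and 78.6% (day 7). Run 28 (chr12:110782981-110783011) was above 80% in each sample, between 82.4% and 100%. Runs 19, 20, 25 and 32, with at least 3 cytosines but under 10 reads in a sample, stood at 74.6% to 88.6% over the pooled reads. Runs 26 and 31, single cytosines at 110778484 and 110784609, were lower, at 68.3% and 63.0% over the pooled reads. Run 26 stood at 87.5% and 80% (day 0), 80% and 28.6% (day 4) and 60% and 100% (day 7), on 1 to 10 reads. Run 31 stood at 75% and 100% (day 0), 42.9% and 60% (day 4) and 50% and 100% (day 7), on 2 to 14 reads. These single cytosines were not tested.

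Across all regions, no region of the windows was called in any comparison. A call needed an adjusted p below 0.05 and a difference of at least 20 points. For day 4 against day 0, 0 of the 16 were called, beside 0.00178% of 56105 regions. For day 7 against day 0, 0 of 16 were called beside 0.497%, and for day 7 against day 4, 0 of 16 beside 0.451%. The windows are autosomal, and in fits of autosomes alone the shares called were 0.00181%, 0.0417% and 0.0181% in the same order, again with 0 of 16. At an unadjusted p below 0.05, edgeR had 0, 1 and 1 of the 16, beside 6.6%, 12.9% and 11.4% of all regions, its quasi-likelihood test had 0, 1 and 0, beside 3.37%, 8.12% and 7.07%, and limma had 0, 1 and 3, beside 4.32%, 12.8% and 11.1%. With 16 regions and these background shares, a count of 0 is near what all regions gave, and a region that misses the threshold is not shown to have kept its level.

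In size, 1 of the 16 regions, run 3 of H19, was at least 20 points lower at day 7 than at day 0, beside 0.622% of all regions, and none was 20 points higher, beside 2.62%. It was also the 1 region at least 20 points lower at day 7 than at day 4, beside 1.09%, and none was 20 points higher, beside 1.71%. Both counts for H19 rest on day 7 replicate 4, with 12 reads, since without it the differences of run 3 were -14.8 and -12.5 points. For day 4 against day 0, 0 regions were 20 points lower and 0 were 20 points higher, beside 0.414% and 1.13%. Day 7 samples lay above both day 0 samples in 6 of 16 regions (29.8% of all regions) and below both in 3 (7.03%). The 3 were run 3 of H19 and runs 4 and 22 of the Dlk1 to Meg3 window. Day 4 samples lay above both day 0 samples in 3 regions (20.6%) and below both in 1 (10.3%). Day 7 samples lay above both day 4 samples in 7 (24.4%) and below both in 3 (10.3%). The median difference over the 16 regions was 0.328 points between days 4 and 0, 2.39 between days 7 and 0 and 2.15 between days 7 and 4 (later minus earlier), where the autosomal regions had medians of 0.404, 1.44 and 0.888 points.

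**Figure D5:**
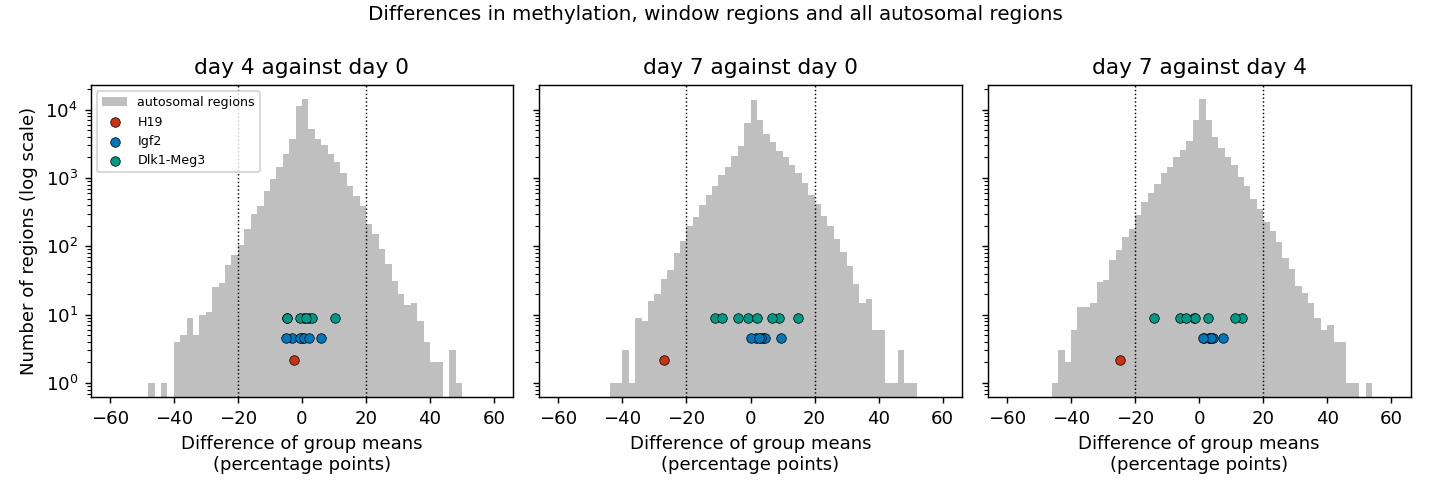
Number of autosomal regions outside the windows (grey, log scale) by the difference of group means in percentage points, later day minus earlier day, in the 3 comparisons. Coloured points mark the 16 regions of the windows at their differences, at heights set only for display, and dotted lines mark -20 and 20 points; the H19 region lies at -27.1 and -24.8 points in the comparisons with day 7 and at -2.32 points for day 4 against day 0.

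A window level pools the reads of all runs in the window, whatever their own levels. From Dlk1 to Meg3 it mixes 24 runs with pooled levels over 70%, 5 between 30% and 70% and 3 below 10%. It thus depends on the share of reads in each kind of run. A middle value there does not by itself show intermediate stretches. Taken over whole windows, the levels lay between 30% and 70% in each sample at H19 and from Dlk1 to Meg3. They lay on both sides of 30% at Rasgrf1 and below 30% in each sample at Igf2. At H19 they were 55.9% and 53.0% (day 0), 54.1% and 56.04% (day 4) and 50% and 43.3% (day 7). At Igf2 they were 16.3% in both day 0 samples, 14.8% and 16.9% at day 4, and 17.7% and 22.1% at day 7. From Dlk1 to Meg3 they were 54.2% and 50.9% (day 0), 56.0% and 58.1% (day 4) and 59.9% and 46.6% (day 7). At Rasgrf1 they were 31.4% and 28.6% (day 0), 37.3% and 20.6% (day 4) and 37.5% and 47.4% (day 7).

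Day 7 samples lay beyond both day 0 samples at H19, where they were lower by 7.79 points in the mean, and at Igf2 and Rasgrf1, where they were higher by 3.63 and 12.5 points. The exact two-sided permutation p was 0.33 for each, the lowest value possible with 2 samples on each side. From Dlk1 to Meg3 the difference of day 7 from day 0 was 0.718 points with overlapping samples (exact permutation p = 1). Day 4 differed from day 0 by 0.596 points at H19, -0.449 at Igf2, 4.5 from Dlk1 to Meg3 and -1.05 at Rasgrf1 (exact permutation p = 0.667, 1, 0.33 and 1). Without day 7 replicate 4, the differences of day 7 from day 0 were -4.45, 1.46, 7.35 and 7.53 points at H19, at Igf2, from Dlk1 to Meg3 and at Rasgrf1. At Rasgrf1 the nearly unmethylated cytosine 89780753 held 17 of 51 and 18 of 49 window reads at day 0. In day 7 replicate 1 it held 9 of 56. In that sample the 3 intermediate cytosines stood at 44.7%, between the day 0 samples (47.1% and 41.9%). At Igf2, day 7 replicate 4 had no reads in the low runs 9 and 10, which enter the other samples. The part that such shares of reads play in the window differences was not tested.

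Over 4927 autosomal regions outside the windows with means of 30% to 70%, the median difference of day 7 from day 0 was 3.89 points, and the median gap between the 2 samples of a day was 8.49 points (day 0), 8.81 (day 4) and 11.8 (day 7). The 2 day 0 samples of run 27 from Dlk1 to Meg3 lay 21.5 points apart, and the 2 day 7 samples of H19 run 3 lay 24.6 points apart, both wider than these medians. Among 9134 autosomal regions holding 50 reads or more per sample, the one most like run 27 over the 6 samples lay at chr12:24319686-24319890, with a root mean square difference of 5.89 points. The next lay at chr15:88898410-88898609 (6.78 points) and chr6:3132982-3133076 (7.24 points), and no gene was assigned to them.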

How the data were processed

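Genomic DNA of 6 samples was cut with MspI or TaqI, bisulfite converted and sequenced. Per the submitters' processing notes, reads were aligned with Bismark and Bowtie2 to mm9. The sources used here do not give versions, trimming, duplicate handling or strand merging. The authors deposited counts of methylated and unmethylated reads for each cytosine, without normalization. The fraction that the authors deposited beside them was not needed, since levels were computed from the counts. Columns were matched to samples by name.

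Regions were runs of at least 3 cytosines with gaps of at most 100 bp and at least 10 reads in each sample. Their methylated and unmethylated counts were tested in edgeR 4.0.16 (R 4.3.3), with sample effects and a methylation effect per group, by likelihood ratio with Benjamini-Hochberg adjustment over 56105 regions, all 6 samples sharing the dispersion. The steps were also run on simulated data with increases planted in the day 7 samples alone. No losses were planted, so that run does not cover them. Window levels were compared with exact two-sided permutation tests in SciPy 1.17.1. Binomial intervals are exact (Clopper-Pearson, 95%), the limit behind a count of 0 is 3 reads of the total, and both cover counting error only, since reads carry no molecular identifiers. For runs of several cytosines, which share reads, the intervals are too narrow and the limits too low. Alternatives used the quasi-likelihood test, limma 3.58.1 on log2 ratios with a pseudocount of 0.5, other gaps, read minimums and run lengths, autosomes alone, and leaving out each sample.

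The windows, tests and named regions were chosen with earlier results of these data known. Every tested region in the windows is named, other runs are given by range or named after their values were seen, and the 3 autosomal regions nearest in level to the most deeply read intermediate region are given by position. Other imprinted genes were not placed, since mm9 gene positions were not used here.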

Additional observations from a re-analysis of the deposited data

How the results depend on the processing

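No region of the windows was called in any of the 16 alternatives run, of which the fit of day 0 and day 4 samples alone bears on their own comparison only. No paired analysis was possible because the groups compared share fewer than 2 replicate numbers. For H19 at day 4 against day 0, the window difference of 0.596 points turned to -2.32 with runs of at least 3 cytosines, and ranged from -0.872 to 2.06 leaving out 1 sample. For Igf2 it turned from -0.449 to 1.31 with those runs, and ranged from -1.48 to 0.586. For Dlk1 to Meg3 at day 7 against day 0 it was -1.53 as a mean of single cytosine levels, and ranged from -5.92 to 7.35; at day 7 against day 4 it was 0.9991 with runs of at least 3 cytosines, and ranged from -10.4 to 2.85. For Rasgrf1 at day 4 against day 0 it ranged from -9.38 to 7.28. The cause was not tested. Rasgrf1 held no run of 3 cytosines, so that alternative gave no value.

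Over all regions, calls for day 4 against day 0 were 1, and 2 with no minimum difference, 0 by quasi-likelihood, 0 by limma, 0 with at least 20 reads, 3 with at least 1 read, 0 with gaps of 50 bp, 2 with runs of any length, 2 with gaps of 200 bp, 7 with day 0 and day 4 samples alone, and 1 to 7 leaving out 1 sample (7 without day 7 replicate 4, 3 without either day 0 sample or day 4 replicate 2). For day 7 against day 0 they were 279, and 470 with no minimum difference, 174 by quasi-likelihood, 47 by limma, 23 on autosomes alone and 177 to 289 leaving out 1 sample (177 without day 0 replicate 2). For day 7 against day 4 they were 253, and 409, 166, 63 and 10 in the same alternatives, and 152 to 344 leaving out 1 sample (152 without day 4 replicate 1). Gaps of 200 bp, day 0 and day 4 samples alone and the intermediate count without day 7 replicate 4 were chosen after seeing the data. Day 7 replicate 4, with 600 reads in the windows, limits every comparison with day 7.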

Other observations

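Regions outside the tests, chosen here after their values were seen, lay in the Dlk1 to Meg3 window. Run 25 (chr12:110778263-110778316, 3 cytosines), just before the intermediate run 27, stood at 91.3% and 100% (day 0), 76.0% and 64.0% (day 4) and 75.0% and 100% (day 7), on 5 to 36 reads. In a fit of the day 0 and day 4 samples alone its difference of -25.6 points for day 4 against day 0 did not pass (adjusted p = 0.477, edgeR). Run 32 (chr12:110787978-110788033, 4 cytosines) stood at 84.1% and 85.3% (day 0), 90.1% and 90.0% (day 4) and 100% and 75.0% (day 7), where replicate 4 had 4 reads. Without that sample the difference of day 7 from day 0 was 15.3 points (adjusted p = 0.136, edgeR), the smallest adjusted p of any region of the windows in the alternatives run.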
